A study of Mus musculus with 6 samples.

Results

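The cytochrome P450 genes were taken here as every protein-coding mouse gene whose symbol is Cyp followed by a digit, leaving out Cyp51, whose product works in cholesterol synthesis. The deposited reads are counted per UCSC transcript identifier, and an identifier was given to a gene when at least 50% of its exonic bases lay, on the same strand, in the exons of that gene in build mm10. This gave 99 genes in 16 families and 39 subfamilies, of 24924 genes that received an identifier. Of the 99, 97 had an identifier and 57 had at least 1 read.

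RNA was sequenced from cells of the kidney collecting duct; the donors were male C57BL/6J mice, with no transgene named in the labels. One group ate low-NaCl chow (0.01 to 0.02% sodium) and the other high-NaCl chow (2.4% sodium), each for 5 days. There were 3 libraries per diet, with 40101899 to 46861531 counted reads each. Isolation method, age, and the number of animals per library go unstated in the labels, so every p-value rests on a spread between libraries that could be technical only. The comparison bears on how sodium intake, and with it aldosterone, goes with the RNA of these cells.

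Cytochrome P450 enzymes hold a haem group and use oxygen, with electrons passed on from a reductase or from a ferredoxin, to oxidise fatty acids, sterols, steroids, vitamins and foreign compounds. In the kidney they are best known for their work on arachidonic acid: Cyp2c and Cyp2j enzymes make epoxides of it, and Cyp4a and Cyp4f enzymes hydroxylate its end, and both kinds of product act on vessels and on sodium transport. Other members activate and break down vitamin D, break down retinoic acid, or take part in making steroids and bile acids.

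Levels are given as CPM (counts-per-million of counted reads, scaled between libraries) and, between genes, as CPM per 1000 countable bases. A base is countable when it lies in exons of a single identifier, because reads over several identifiers were not counted by the authors. Changes are log2 fold changes, low-NaCl minus high-NaCl, ± SE, from edgeR's quasi-likelihood test with Benjamini-Hochberg adjustment over 10537 genes, and a gene is called at an adjusted p under 0.05. Values per library are listed in the order 1, 2 and 3, and ± after a mean is the SD with n = 3 unless stated.

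Among the P450 genes, 16 were expressed, meaning a mean of at least 1 CPM over the 6 libraries, and they belonged to 12 subfamilies. The gene just inside that bound was Cyp2b23 at 1.19 CPM and the one just outside was Cyp1b1 at 0.960 CPM. Cyp2j6 alone made up 54.3% of all P450 reads, and together with Cyp2j11, Cyp7b1 and Cyp4v3 82.7%. Summed over all members, the level was 269, 294 and 289 CPM on the low-NaCl diet and 325, 388 and 349 CPM on the high-NaCl diet. The sum was thus lower in each low-NaCl library than in any high-NaCl library, at 284 ± 13.0 against 354 ± 31.8 CPM.

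Low counts were removed from the test by a filter that looks at the diets, and 24 members passed it. Of these 24, 4 were called between the diets, which is 16.7%, beside 3.4% of all genes tested. Cyp2j11 and Cyp4f39 fell on the low-NaCl diet, and Cyp4a12a and Cyp2u1 rose. Split by direction, the background was 1.7% of genes called higher and 1.7% called lower on the low-NaCl diet. The libraries of the diets did not overlap in 8 of the 24 members (33.3%), beside 23.8% of all genes tested. The log2 fold change was above 0 in 10 members and below 0 in 14, with a median of −0.16 beside −0.00 over all genes tested. Its median size without regard to sign was 0.49 in the members and 0.26 over all genes. Members and background were not matched for level, and 16 of the 24 members were expressed. The 24 passed a filter that favours genes high in either diet and do not stand for all 99.

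**Figure D1:**
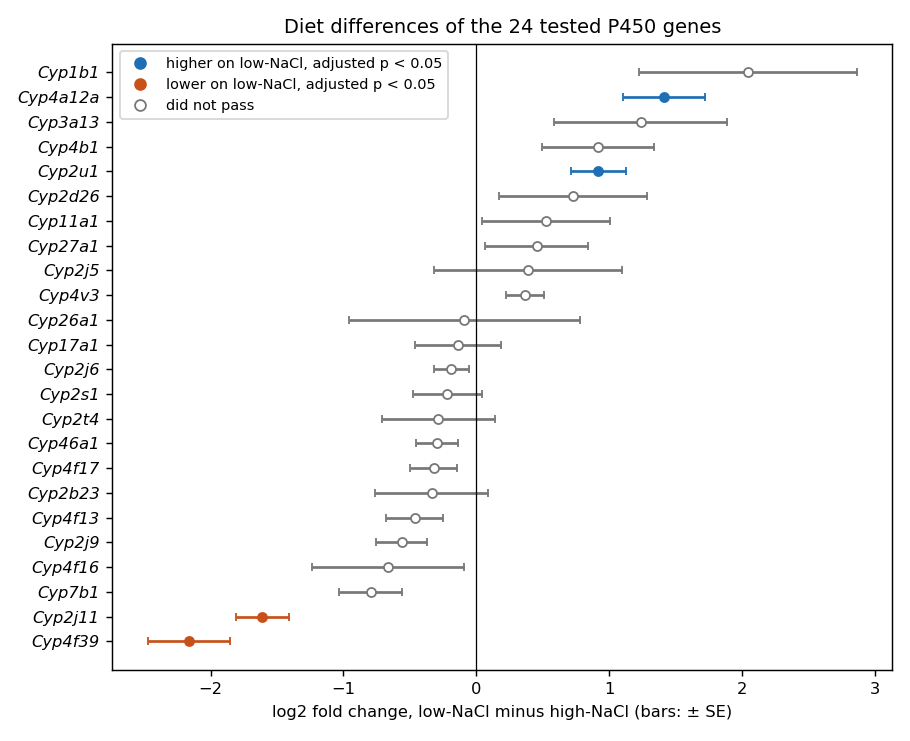
Log2 fold change (x axis, low-NaCl minus high-NaCl, bars ± SE) of each of the 24 tested P450 genes, with called genes as filled points. Cyp4f39 and Cyp2j11 lie lowest at −2.16 and −1.61, and the called higher genes Cyp4a12a and Cyp2u1 lie at 1.41 and 0.92 among uncalled genes with wider bars.

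Cyp2j genes showed the highest level and the call with the smallest p among the P450 genes. The 8 members of this epoxygenase subfamily lie together on chromosome 4 (96027534 to 96664154, a span of 637 kb in mm10), 6 of them had reads and 3 were expressed. Cyp2j11 (identifier uc008tth.3, minus strand, 96294508 to 96348662) and Cyp2j6 (uc008tti.2, minus strand, 96516138 to 96553661) are separated by Cyp2j8, which had 29 reads in all. Because Cyp2j11 was called and the more abundant Cyp2j6 was not, their promoters are shown for comparison, from RefSeq (GRCm38.p6), each from 250 bases before to 50 bases after the annotated start, with matches to the searched motifs in capitals. They lie at chr4:96348631-96348930 and chr4:96553602-96553901, both on the minus strand, and are written 5′ to 3′ along the gene.
Cyp2j11: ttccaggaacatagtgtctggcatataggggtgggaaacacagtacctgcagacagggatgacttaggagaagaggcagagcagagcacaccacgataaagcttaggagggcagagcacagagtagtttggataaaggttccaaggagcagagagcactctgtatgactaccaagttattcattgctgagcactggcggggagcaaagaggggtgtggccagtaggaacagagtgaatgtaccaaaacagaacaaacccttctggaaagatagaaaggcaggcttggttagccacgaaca
Cyp2j6: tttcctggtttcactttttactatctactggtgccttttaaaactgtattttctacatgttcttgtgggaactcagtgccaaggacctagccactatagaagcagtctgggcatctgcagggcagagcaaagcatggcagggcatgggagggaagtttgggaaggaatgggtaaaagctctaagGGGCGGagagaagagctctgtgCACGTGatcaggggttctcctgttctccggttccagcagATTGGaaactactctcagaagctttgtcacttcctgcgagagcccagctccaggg
The Cyp2j6 window holds 1 GC box (GGGCGG), 1 E-box (CACGTG) and 1 CCAAT box, the last as ATTGG on the other strand, and the Cyp2j11 window holds none of the motifs searched. These matches do not overlap each other. No match says only that these letters are not in this window.

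Cyp2j11 measured 23.9, 14.7 and 18.8 CPM in the low-NaCl libraries and 47.9, 66.2 and 61.2 CPM in the high-NaCl libraries. Every low-NaCl library lay below every high-NaCl library, and the gap between the diets was wider than the spread within either. The means were 19.1 ± 4.60 and 58.4 ± 9.47 CPM, a 3.05-fold lower level on the low-NaCl diet, with a log2 fold change of −1.61 ± 0.20 (adjusted p = 0.00655). Leaving out any of the 6 libraries in turn kept the call, with log2 fold changes between −1.81 and −1.45 and adjusted p between 0.00269 and 0.0325. All exonic bases of Cyp2j11 are countable, and 1.34% of its stretches of 50 bases also occur in transcripts of another gene.

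Cyp2j6 measured 156, 170.4 and 159 CPM on the low-NaCl diet and 166, 199 and 189 CPM on the high-NaCl diet. Its diets overlapped, and the log2 fold change of −0.19 ± 0.13 did not pass (adjusted p = 0.501). Set against Cyp2j6 within each library, Cyp2j11 reads per countable base were 0.284, 0.160 and 0.220 of those of Cyp2j6 on the low-NaCl diet and 0.536, 0.619 and 0.603 on the high-NaCl diet. The means were 0.221 ± 0.0617 and 0.586 ± 0.0442. This ratio needs no scaling between libraries; as it sets a called gene over an uncalled one, it describes the same reads as the call and is not tested.

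Cyp2j9, beside Cyp2j6 on the same strand and known from the brain as an arachidonic acid hydroxylase, measured 3.28, 3.80 and 3.37 against 5.55, 5.45 and 4.44 CPM. All low-NaCl libraries lay below all high-NaCl ones, yet the log2 fold change of −0.56 ± 0.19 did not pass (adjusted p = 0.157). Cyp2j5, the epoxygenase best known from the mouse kidney, was low at 0.174, 1.07 and 1.04 against 0.138, 0.937 and 0.638 CPM. Library 1 of each diet held the least Cyp2j5, the diets overlapped, and its log2 fold change was 0.39 ± 0.71 (adjusted p = 0.818). Cyp2j12 had no read with 8.38% of its bases countable, Cyp2j13 had 5 reads with 3.18% countable, and Cyp2j7 had no identifier. The summed Cyp2j level was 184, 190.2 and 182 CPM against 220, 272 and 255 CPM, so the diets did not overlap, and most of the difference between the means lay in Cyp2j11 and Cyp2j6.

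**Figure D2:**
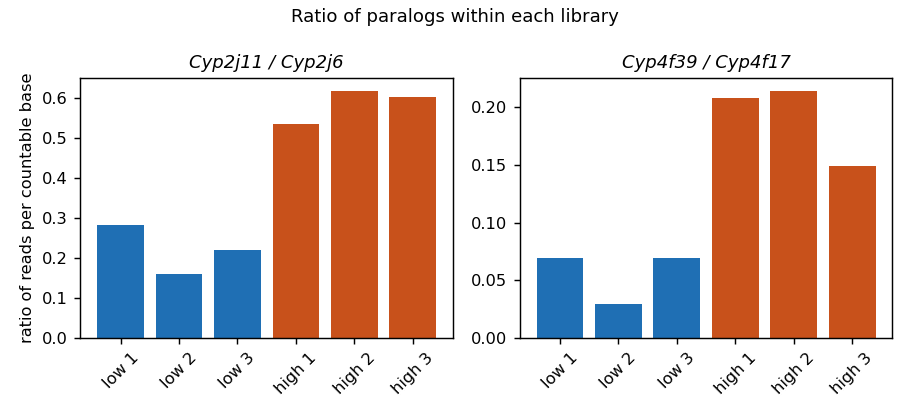
Ratio of reads per countable base (y axis, no unit, from 0) of a called P450 gene to an abundant neighbour of its own subfamily, 1 bar per library. Cyp2j11 to Cyp2j6 reaches at most 0.284 on the low-NaCl diet and at least 0.536 on the high-NaCl diet, and Cyp4f39 to Cyp4f17 at most 0.0691 and at least 0.149.

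Cyp4f genes, which hydroxylate the end of long fatty acids and of leukotrienes, held the P450 gene with the most negative log2 fold change. Of 9 members, 7 had reads, 3 were expressed, and 8 lie within 495 kb of chromosome 17 (32452723 to 32947402). Cyp4f39 (plus strand, 32452723 to 32493320), the counterpart of the human skin ceramide enzyme CYP4F22, opens this cluster, 12730 bases before Cyp4f17. Its promoter is shown because it belongs to the member with the largest fall, at chr17:32452473-32452772 on the plus strand in the same RefSeq build, with motif matches in capitals.
Cyp4f39: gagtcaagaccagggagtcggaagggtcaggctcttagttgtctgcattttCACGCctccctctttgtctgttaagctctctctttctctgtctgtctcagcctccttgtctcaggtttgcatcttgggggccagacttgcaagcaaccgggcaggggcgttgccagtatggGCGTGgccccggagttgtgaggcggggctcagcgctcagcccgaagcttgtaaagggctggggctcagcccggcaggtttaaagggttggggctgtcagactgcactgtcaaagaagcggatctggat
The window holds 2 copies of GCGTG, the core of the element bound by the aryl hydrocarbon receptor, 1 of them as CACGC on the other strand, and 11 CG pairs beside a median of 7 over all promoters.

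Cyp4f39 was a gene of low level, with 34, 21 and 36 reads in the low-NaCl libraries and 141, 176 and 94 reads in the high-NaCl libraries. In CPM these were 0.845, 0.478 and 0.849 against 3.88, 3.37 and 2.50. The highest low-NaCl library lay well under the lowest high-NaCl library. Means of 0.724 ± 0.213 and 3.25 ± 0.696 CPM gave a 4.48-fold lower level on the low-NaCl diet (log2 fold change −2.16 ± 0.31, adjusted p = 0.00899). The call held without each library in turn, with log2 fold changes from −2.32 to −1.93 and adjusted p from 0.00987 to 0.0390. None of its stretches of 50 bases occurs in transcripts of another gene.

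The neighbours of Cyp4f39 were not called. Cyp4f17 measured 7.90, 10.5 and 7.97 against 12.0, 10.2 and 10.9 CPM, with overlapping diets and a log2 fold change of −0.32 ± 0.18 (adjusted p = 0.389). Cyp4f39 per Cyp4f17, again as reads per countable base, was 0.0691, 0.0293 and 0.0689 on the low-NaCl diet and 0.208, 0.214 and 0.149 on the other, likewise a description. The ratio of Cyp2j9 to Cyp2j6 gave 0.0368 ± 0.00124 against 0.0481 ± 0.00850. Cyp4f13, at the far end of the cluster, measured 8.72, 7.22 and 8.21 against 14.0, 8.19 and 11.2 CPM (log2 fold change −0.47 ± 0.21, adjusted p = 0.288). High-NaCl library 2 lay among the low-NaCl libraries, and only 19.1% of the bases of Cyp4f13 are countable. Cyp4f14 and Cyp4f15, between them, had no read with 8.23% and 0.98% of bases countable, so their absence was not measured.

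Cyp4a12a (chromosome 4, plus strand, 115299046 to 115332815), the arachidonic acid hydroxylase known for its androgen-dependent level in the kidney of male mice, had the larger change of the pair of genes that rose. It measured 2.14, 3.76 and 3.54 CPM on the low-NaCl diet and 1.54, 0.880 and 1.14 CPM on the high-NaCl diet. The diets did not overlap, but low-NaCl library 1 and high-NaCl library 1 lay close together. Its log2 fold change was 1.41 ± 0.31, a 2.66-fold higher level on the low-NaCl diet (adjusted p = 0.0399). The call held in 1 of the 6 fits that leave out a library, the one without low-NaCl library 1 (adjusted p = 0.0182), and the others gave up to 0.174. It was lost with total-count scaling (log2 fold change 1.54, adjusted p = 0.0546) and with limma-voom (1.43, 0.0509).

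Cyp4a12a shares 48.9% of its stretches of 50 bases with transcripts of its near copy Cyp4a12b, so reads of the pair cannot be fully told apart. Cyp4a12b had 12, 3 and 1 reads on the low-NaCl diet and no read on the high-NaCl diet. Of the 8 Cyp4a genes, 7 had reads and only Cyp4a12a was expressed; Cyp4a10 had 26 reads in all with 26.2% of its bases countable, and Cyp4a14 had 2. The list of proximal tubule markers bears on a gene best known from that segment, so its values are given. Of 23 markers 18 had reads, and 1 of 13 tested rose, beside 1.7% of all genes tested, and 0 fell. Their summed level was 1787 to 3525 CPM on the low-NaCl diet and 1002 to 2233 CPM on the high-NaCl diet, most of it from Aqp1, which other cells also make. The defining marker Slc34a1 was at 0.273, 1.002 and 1.79 against 0.467, 0.516 and 0.505 CPM, and Slc5a12 had a read in 1 library only. The defining markers Lrp2 and Kap, given further below, overlapped between the diets, and Kap lay mostly lower on the low-NaCl diet. The part of such cells in the level of Cyp4a12a was not tested.

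Cyp2u1 (chromosome 3, minus strand, 131288441 to 131303227), which hydroxylates arachidonic acid and other long fatty acids, measured 5.99, 5.92 and 6.44 CPM against 3.60, 3.58 and 2.53 CPM. The low-NaCl libraries lay close together and all above the high-NaCl libraries. Means were 6.12 ± 0.282 and 3.24 ± 0.613 CPM, a 1.89-fold higher level on the low-NaCl diet (log2 fold change 0.92 ± 0.21, adjusted p = 0.0432). This call held in 1 of 6 fits that leave out a library, the one without high-NaCl library 2 (adjusted p = 0.0422), and was lost with total-count scaling, where the log2 fold change was no smaller (1.0002, adjusted p = 0.0813). Its 3 identifiers, of which 52.5% of the gene's bases are countable, each lay on the same side with log2 fold changes of 0.56, 1.40 and 1.10, and none passed alone (adjusted p from 0.0752 to 0.229). Of its stretches of 50 bases, 12.3% also occur in transcripts of genes outside the P450 family.

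**Figure D3:**
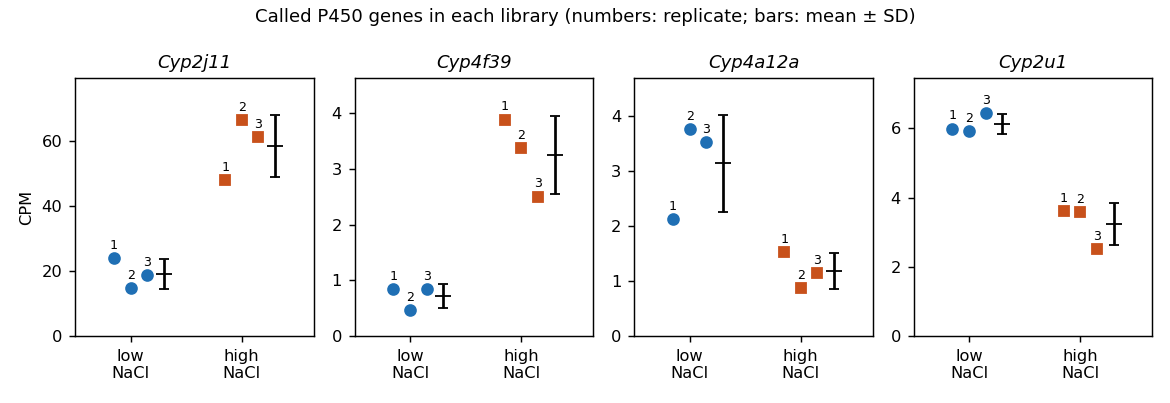
CPM (y axis, from 0) of the 4 called P450 genes in each library, numbered by replicate, with the mean ± SD of the 3 libraries of a diet. The diets do not overlap in any of the 4 panels, and the narrowest gap is in Cyp4a12a, between 2.14 and 1.54 CPM in library 1 of each diet.

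Sequencing lane, read from the file headers, moved with diet in part: lane 1 held library 1 of each diet, lane 2 the other low-NaCl libraries and lane 3 the other high-NaCl libraries. Within lane 1, the log2 difference of low-NaCl from high-NaCl library 1 was −1.003 for Cyp2j11, −2.20 for Cyp4f39, 0.47 for Cyp4a12a and 0.73 for Cyp2u1, each with 1 library per diet and no replicate. The directions were those of all 6 libraries. With lane as a term in edgeR's test none of the 4 passed (adjusted p = 0.242, 0.224, 0.674 and 0.484), and 1 and 2 genes in all were then called higher and lower. Outside lane 1, lane and diet cannot be told apart, so the diet effect under the lane term rests on library 1 of each diet. Mitochondrial reads also moved with diet, at 21.8, 20.5 and 20.97% of counts in the low-NaCl libraries and 29.9, 21.9 and 28.7% in the high-NaCl libraries. Among the libraries at or under 25%, high-NaCl library 2 is alone on its diet, so the log2 fold changes there, −1.81 for Cyp2j11, −2.23 for Cyp4f39, 1.82 for Cyp4a12a and 0.76 for Cyp2u1, set 1 library against 3 and are no check with replicates. That library also held the highest Cyp2j11 level.

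Markers of the main collecting duct cells moved with the called genes. Over all genes tested, 1.7% were called higher and 1.7% lower on the low-NaCl diet. Among principal cell markers, the cells that take up sodium and water, 9 of 10 had reads, 3 of 8 tested fell, and the summed level was 4786 to 6578 CPM on the low-NaCl diet against 9987 to 12492 CPM on the high-NaCl diet, with Gata3 at 0. Among intercalated cell markers, the cells that move acid and base, all 8 had reads, 6 of 8 rose, and the sum was 1886 to 4126 against 1125 to 1271 CPM. Cyp2j11 and Cyp4f39 thus differed in the direction of the principal cell sum, and Cyp4a12a and Cyp2u1 in that of the intercalated cell sum. The sum of thick limb and distal convoluted tubule markers also moved in the direction of Cyp4a12a and Cyp2u1. It was 167 to 195 against 101 to 165 CPM, with 1 of 5 tested called higher and 0 lower. The part of cell makeup in these changes was not tested, and in whole isolates fewer cells of a type and less RNA per cell cannot be told apart. Of 7 endothelial markers 4 had reads, with sums of 0.50 to 2.36 CPM on the low-NaCl diet and 3.44 to 3.46 CPM on the high-NaCl diet, and Pecam1, Emcn and Tek were at 0. Of 6 leukocyte markers 3 had reads, with sums of 0.05 to 0.34 CPM over both diets and Ptprc, Cd68 and Adgre1 at 0. All 4 podocyte markers had reads, with sums of 5.26 to 38.3 CPM on the low-NaCl diet and 18.0 to 37.3 CPM on the high-NaCl diet. In the endothelial, leukocyte and podocyte lists no gene was called. Reads over several identifiers were not counted, so a marker at 0 is not shown to be absent.

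**Figure D4:**
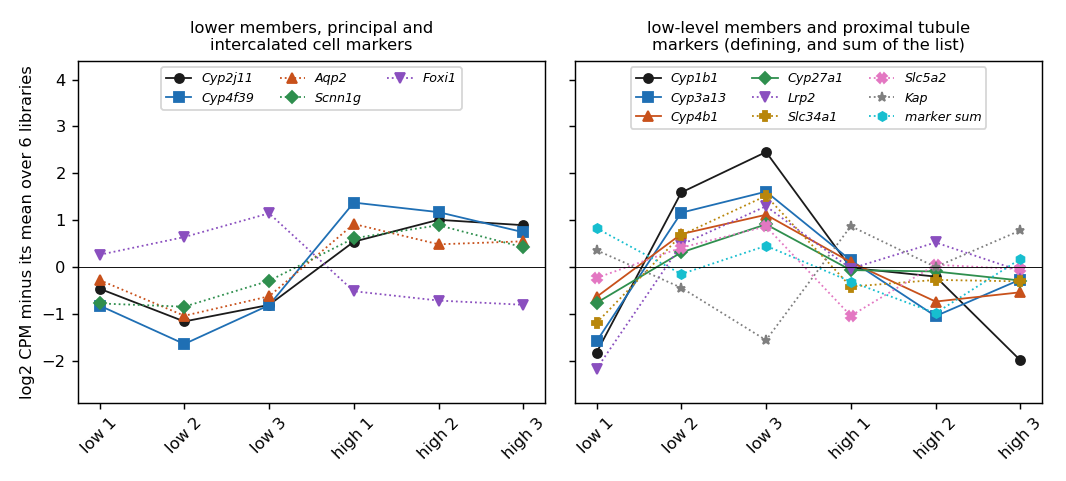
Log2 CPM of single genes minus the mean over the 6 libraries (y axis), per library (x axis). Solid lines are P450 genes and dotted lines are cell type markers, and the lines only join the points of a gene. The right panel also draws Slc5a2, another defining proximal tubule marker. Left, Cyp2j11 and Cyp4f39 lie with Aqp2 and Scnn1g below 0 in the low-NaCl libraries, where Foxi1 lies above 0; right, Cyp1b1, Cyp3a13, Cyp4b1 and Cyp27a1 lie lowest or near lowest in low-NaCl library 1 and highest in low-NaCl library 3, as Lrp2 and Slc34a1 do, while the summed proximal tubule list is highest in low-NaCl library 1 and Kap is lowest in low-NaCl library 3.

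No sterol or steroid P450 gene was called, and 4 of them, Cyp7b1, Cyp46a1, Cyp27a1 and Cyp17a1, were expressed. Cyp7b1, which hydroxylates oxysterols on the way to bile acids and their removal, measured 16.0, 16.5 and 17.9 CPM on the low-NaCl diet and 25.5, 41.5 and 20.4 CPM on the high-NaCl diet. The low-NaCl libraries lay close together and below the high-NaCl ones, whose spread came mostly from library 2. Its log2 fold change of −0.80 ± 0.24 did not pass (adjusted p = 0.106), and became −0.45 without high-NaCl library 2 (adjusted p = 0.122). The gene passed with DESeq2 (−0.80, adjusted p = 0.0257) and with no filter on low counts (−0.80, adjusted p = 0.0472).

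Cyp46a1, the cholesterol hydroxylase best known from neurons, measured 7.18, 7.83 and 7.50 against 9.76, 9.31 and 8.59 CPM, without overlap and without a call (log2 fold change −0.30 ± 0.16, adjusted p = 0.370). Cyp27a1, the mitochondrial sterol hydroxylase, measured 0.745, 1.57 and 2.38 against 1.21, 1.19 and 1.04 CPM, so that its low-NaCl libraries lay on both sides of the high-NaCl ones (0.45 ± 0.39, adjusted p = 0.589). Cyp17a1, the steroid hydroxylase and lyase, was at 2.02 ± 0.632 against 2.22 ± 0.657 CPM (adjusted p = 0.863). Cyp11a1, which cuts the cholesterol side chain to start steroid synthesis, was at 0.802 ± 0.327 against 0.551 ± 0.264 CPM (adjusted p = 0.615). Aldosterone synthase, Cyp11b2, had 2 reads in all, both in high-NaCl library 2, and Cyp11b1 had none. Of 4 adrenal cortex markers only Star had reads, with 3.27 to 5.61 CPM in the 6 libraries.

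Cyp4v3, the counterpart of the human fatty acid hydroxylase of the retina CYP4V2, was the P450 gene with the most reads after Cyp2j6 and Cyp2j11. It measured 27.7, 34.6 and 34.9 CPM on the low-NaCl diet and 22.8, 27.3 and 25.3 CPM on the high-NaCl diet. The diets lay apart by less than 1 CPM, and its log2 fold change was 0.37 ± 0.15 (adjusted p = 0.220).

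In a group of low-level members, put together after their values were seen, low-NaCl library 1 lay below the other low-NaCl libraries. Those other libraries lay above every high-NaCl library in Cyp1b1, Cyp4b1 and Cyp3a13. Cyp1b1, which oxidises oestrogens, retinoids and aromatic compounds, measured 0.149, 1.59 and 2.90 against 0.522, 0.459 and 0.133 CPM. Low-NaCl library 1 lay with the high-NaCl libraries and the other low-NaCl libraries above them. The log2 fold change of 2.04 ± 0.82 did not pass (adjusted p = 0.224) and passed without low-NaCl library 1 (2.56, adjusted p = 0.0223). It turned to −1.79 with a lane term (adjusted p = 0.535), which compares the diets through library 1 of each only. Cyp4b1 at 1.17, 2.96 and 3.94 against 1.95, 1.09 and 1.25 CPM (0.92 ± 0.42, adjusted p = 0.287) and Cyp3a13 at 0.224, 1.503 and 2.05 against 0.742, 0.325 and 0.559 CPM (1.24 ± 0.65, adjusted p = 0.359) had their lowest low-NaCl value in the same library. The endocytic receptor Lrp2, a defining proximal tubule marker, was at 2.58, 16.2 and 28.7 against 11.4, 16.8 and 11.0 CPM, again lowest in low-NaCl library 1. Kap, another defining marker, went the other way within the low-NaCl diet, at 15.4, 8.81 and 4.06 against 21.9, 12.0 and 20.6 CPM. The sum over the proximal tubule list was highest in low-NaCl library 1, at 3525, 1787 and 2715 against 1599, 1002 and 2233 CPM. Being mostly Aqp1, this sum does not show how the other markers of the list moved. The part of proximal tubule cells in these levels was not tested.

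Per countable base, Cyp2j6 stood first at 48.2 ± 4.70 CPM per 1000 bases (SD, n = 6), above the range of every other member. Cyp4f13 followed at 29.3 ± 7.75, Cyp2j11 at 20.1 ± 11.6, Cyp4v3 at 11.4 ± 1.95 and Cyp7b1 at 10.6 ± 4.49, and from Cyp4f13 to Cyp7b1 each range overlapped that of the next gene. With all exonic bases as the length, Cyp4f13 came to 5.60 and moved from rank 2 to rank 6. Next came Cyp4f17 at 5.85, Cyp46a1 at 3.95, Cyp4b1 at 3.42, Cyp2u1 at 2.79 and Cyp2j9 at 2.05, and Cyp4f17 overlapped neither of its neighbours while the ranges from Cyp46a1 to Cyp2j9 overlapped in turn. Cyp17a1 at 1.15 led the last 6, with Cyp4a12a at 0.894, Cyp2s1 at 0.768, Cyp4f39 at 0.759, Cyp27a1 at 0.717 and Cyp2b23 at 0.544. Their ranges overlapped from each gene to the next. With all exonic bases as the length, Cyp4b1 (30.4% countable) came to 1.04 and moved from rank 8 to rank 11. Cyp2s1 (42.2% countable) came to 0.324 and moved from rank 13 to rank 16. The order of Cyp2j11 itself turned on diet: its per-length level was 9.89 ± 2.38 on the low-NaCl diet, between Cyp7b1 (7.76 ± 0.457) and Cyp4v3 (12.8 ± 1.59) on that diet, and 30.2 ± 4.89 on the high-NaCl diet, between Cyp7b1 (13.4 ± 5.08) and Cyp4f13 (34.0 ± 8.85) there.

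**Figure D5:**
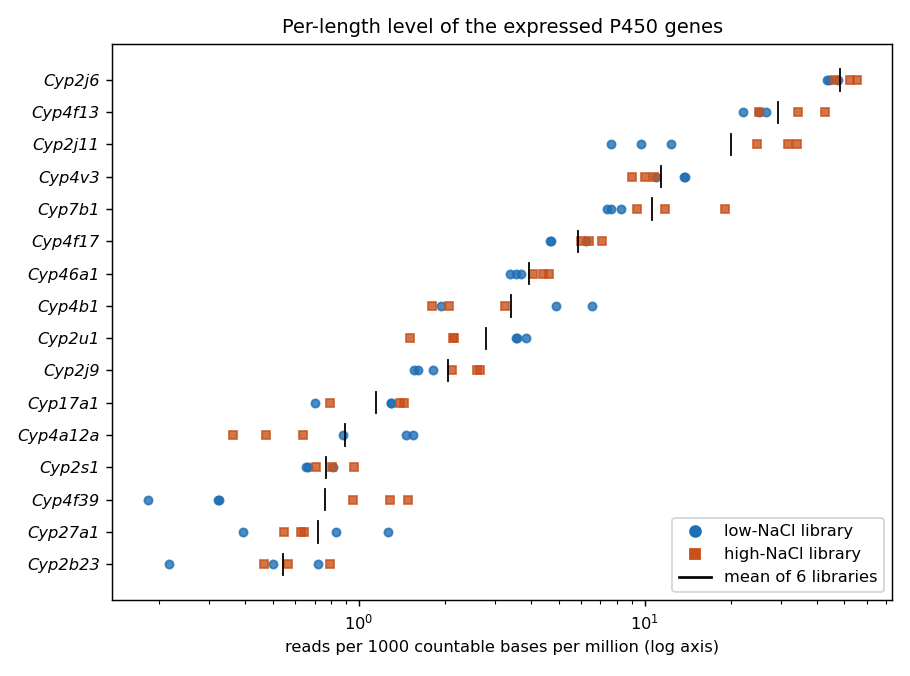
CPM per 1000 countable bases (x axis, log scale) of the 16 expressed P450 genes in each library, with the mean of the 6 libraries as a bar. Cyp2j6 lies to the right of all others, and Cyp2j11 and Cyp4f39 split by diet.

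Members that handle vitamin D and retinoic acid were at or near the limit of the data. Cyp24a1, which inactivates vitamin D and has 97.5% of its bases countable, had 0, 6 and 2 reads on the low-NaCl diet and 0, 2 and 0 on the high-NaCl diet. Cyp27b1, the enzyme that makes active vitamin D, had no read, but 1.06% of its bases are countable, so its level was not measured. Cyp2r1, which makes the circulating form, had 21 reads in all. Of the retinoic acid hydroxylases, Cyp26a1 was at 0.312 ± 0.172 against 0.323 ± 0.281 CPM with no read in high-NaCl library 1 (adjusted p = 0.967), Cyp26b1 had 16 reads with 13.0% of bases countable, and Cyp26c1 had 5.

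Most genes of the Cyp2c, Cyp3a and Cyp2d subfamilies had few reads or none. Of 15 Cyp2c genes, 4 had reads and none was tested, with 6 reads for Cyp2c23, of whose bases 38.0% are countable. Of 9 Cyp3a genes, 2 had reads and 1 was tested, the Cyp3a13 given above. Of 8 Cyp2d genes, 5 had reads and 1 was tested, Cyp2d26, at 0.266 ± 0.0851 against 0.155 ± 0.0811 CPM (adjusted p = 0.544). Some genes without a read were barely countable, such as Cyp2d22 (0.22% of bases), Cyp3a25 (4.44%) and Cyp2d10 (8.62%). Cyp2e1, known for alcohol oxidation, had 17 reads with 27.6% of bases countable, and Cyp1a1, the classic target of the aryl hydrocarbon receptor, 16 reads with 9.08% countable. In all, 33 members had reads but too few for the test, at most 29 each. Another 40 had an identifier and no read, of which 25 have at least 50% of their bases countable and 11 under 10%. A count of 0 allows up to 3 reads, or 0.0574 to 0.0825 CPM depending on the library, for counting error only and only over the countable bases. Cyp3a41a and Cyp2j7 had no identifier of their own, and the single identifier of Cyp3a41b spans both near-identical Cyp3a41 copies and had no read.

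Genes that work with P450 enzymes were taken as lists. Of 15 electron donors and haem enzymes 11 were tested and none passed. Cytochrome b5, Cyb5a, was at 667 ± 72.3 against 591 ± 31.2 CPM, the mitochondrial ferredoxin reductase Fdxr at 54.1 ± 7.31 against 64.0 ± 12.2 CPM, and the P450 reductase Por had no read with 3.61% of its bases countable. The median log2 fold change of this list was 0.08. Of 3 enzymes with the P450 fold that the rule left out, none passed: thromboxane synthase Tbxas1 was at 28.9, 16.0 and 17.6 against 40.1, 26.3 and 45.2 CPM, and its diets overlapped (−0.84 ± 0.26, adjusted p = 0.119), and Cyp51 had 0.43 ± 0.16 (adjusted p = 0.195).

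In the list of epoxide hydrolases and other eicosanoid enzymes, 2 of 7 tested rose, beside 1.7% of all genes tested, and 0 fell. Ptgs2, the inducible cyclooxygenase, was at 0.820, 0.524 and 1.60 against 0.220, 0.0383 and 0.0798 CPM, all low-NaCl libraries above all high-NaCl ones (log2 fold change 3.17 ± 0.66, adjusted p = 0.0348). Alox15, a lipoxygenase, was at 1.22, 0.774 and 1.09 against 0.275, 0.115 and 0.372 CPM (2.04 ± 0.47, adjusted p = 0.0454). Both were near 1 CPM or below, while the constitutive cyclooxygenase Ptgs1 was at 116 ± 21.1 against 175 ± 40.5 CPM and did not pass (−0.60 ± 0.19, adjusted p = 0.136). No list gene was called higher when low-NaCl library 2, low-NaCl library 3 or high-NaCl library 3 was left out.

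In the vitamin D list, 4 of 10 tested fell, beside 1.7% of all genes tested. None rose, and the median log2 fold change over the list was 0.11. The receptor Vdr was at 303, 324 and 302 against 444, 555 and 457 CPM (−0.65 ± 0.15, adjusted p = 0.0444), and the calcium buffer Calb1 at 479, 366 and 394 against 891, 1113 and 1168 CPM (−1.36 ± 0.18, adjusted p = 0.00655). The calcium channel Trpv5 (−1.43 ± 0.32, adjusted p = 0.0422) and Kl, the co-receptor klotho (−1.04 ± 0.19, adjusted p = 0.0224), were the other called members. The diets did not overlap in any of these 4 genes, beside 23.8% of all genes tested without overlap. The principal cell sum moved the same way, and the thick limb and distal convoluted tubule sum the other way. No list of connecting tubule markers was taken, and the part of cell makeup in these 4 calls was not tested. Cyp24a1, the classic target of the receptor, had the 10 reads given above.

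The remaining lists held a single call: of 17 tested phase II enzymes, which conjugate the products of P450 enzymes, the glutathione transferase Gsta2 fell, at 3.07 ± 0.978 against 7.04 ± 1.37 CPM (−1.20 ± 0.27, adjusted p = 0.0439). Over all genes tested, 1.7% were called lower. None passed of 5 xenobiotic receptors and targets, where Nqo1 came nearest (−0.62 ± 0.15, adjusted p = 0.0548), of 10 retinoid genes, or of 5 genes of steroid metabolism. There Hsd11b2, which protects the mineralocorticoid receptor from glucocorticoids, had −1.80 ± 0.44 (adjusted p = 0.0576) with 2.27% of its bases countable. Over the 8 lists, the 5 calls of lower genes became 1 when low-NaCl library 2 was left out, 1 when high-NaCl library 3 was, 2 when high-NaCl library 1 was and 3 when low-NaCl library 3 was.

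Promoter windows of 300 bases were at hand for 19 of the 24 tested members. Cyp4a12a and Cyp2u1, the genes called higher, had no window, nor had Cyp4f17, Cyp7b1 and Cyp17a1. The motifs were searched on both strands in the windows of these 19 members and in all 32851 promoters of the RefSeq table. The element shared by the glucocorticoid and mineralocorticoid receptors, read as GNACA and TGTNC with 3 bases between, was in 0 of 19 and in 0.475% of all promoters. At so low a share, 0 of 19 is no result about the members. GCGTG was in 6 of 19 and 32.4% of all, the GC box GGGCGG in 11 and 35.7%, the CCAAT box in 10 and 37.4%, the TATA box (TATAAA) in 3 and 13.6%, the AP-1 site TGANTCA in 3 and 7.81%, and the E-box CACGTG in 2 and 7.15%. The direct repeat of AGGTCA with 1 base between, the Grainyhead site AACCNGTT, the cAMP element TGACGTCA and the HNF1 site (GTTAAT and ATTAAC with 1 base between) were in none of the 19. These are matches of letters and not measured sites.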

How the data were processed

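Total RNA of 6 collecting duct isolates was measured as read counts. The authors made the deposited counts with featureCounts 1.5.0-p3 on UCSC exons (mm10), per the file headers, without options for strand or overlap, so overlapping antisense genes are not separated and reads over several identifiers are left out. FastQC, Subread and edgeR stand in the submitters' processing notes; the aligner is not given in the sources used here.

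Identifiers were matched to GENCODE M21 genes and summed: 52383 of 59121 matched (94.4% of counts), the rest (5.65%) entering library sizes only. Mitochondrial counts were 20.5 to 29.9% of a library. The test was edgeR 4.0.16 (R 4.3.3, limma 3.58.1) with TMM factors, filterByExpr by diet and robust glmQLFit, without covariates, with Benjamini-Hochberg adjustment at 0.05. The SE is the log2 fold change over the root of F. On simulated counts of 10537 genes the test recovered 54% of 2-fold and 91% of 4-fold changes, with 4.61% of 152 calls false. These counts held 100 changed genes per fold, of all levels, and no lane or cell makeup difference. The rates therefore hold for that setting only.

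Named were called, expressed and non-overlapping members, 15 members fixed by name and up to 4 genes per list by smallest p; further members are named where a count needed them. The members, lists and rules were chosen with earlier results of these data known. Ratios between genes are descriptions, with no test. No pair of libraries matched within sampling noise. The chi-square per degree of freedom was 38.2 to 247 for pairs within a diet and up to 304 for pairs across diets. Alternatives were other scalings and filters, DESeq2 1.42.0, limma-voom, a replicate block, lane, matching rules and leaving out each library.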

Additional observations from a re-analysis of the deposited data

How the results depend on the processing

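Cyp2j11 and Cyp4f39 stayed called in every alternative with at least 2 libraries per diet except the lane term; the calls of Cyp4a12a and Cyp2u1 depended on more of them. Counts of P450 genes higher and lower, 2 and 2, became 0 higher with total-count scaling, 1 higher with limma-voom or with each identifier alone, 0 and 0 with a lane term, and, chosen after seeing the data, 0 higher among libraries with at most 25% mitochondrial counts (high-NaCl library 2 then stood alone and was assumed to vary like the others, so calls there say nothing of stability). Leaving out each library gave 0 to 3 higher and 2 to 2 lower. Expressed members numbered 16, and 26 at 0.1 CPM or 4 at 10 CPM. For the lists, 2 higher and 5 lower became 1 and 1 with total-count scaling, 0 higher with a CPM filter, 8 lower with DESeq2, 1 higher with limma-voom, 5 and 8 with sample weights, 0 and 0 with lane, 1 and 2 at low mitochondrial counts, 1 and 3 among genes at least 50% countable, and 0 to 6 and 1 to 5 without each library. For all genes, 179 and 179 became 80 and 55 with total-count scaling, 275 lower with no filter, 401 and 442 with DESeq2, 578 and 579 with sample weights, 1 and 2 with lane, 30 and 90 at low mitochondrial counts, and 32 to 287 and 36 to 251 without each library. Apart from fewer libraries or genes, the cause was not tested.

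With 3 libraries per diet, whether replicate numbers pair the libraries could not be settled. Same-numbered deviations correlated at 0.19, 0.27 and −0.07, and the other pairs at −0.28 to 0.10. Low-NaCl libraries 1 and 2 correlated best with their own number, and low-NaCl library 3 did not. The replicate block gave 2 and 2 P450 genes, 8 list genes lower and 462 and 442 of all genes.

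Of 374 log2 fold changes of 19 members under alternatives, 10 reversed, none of a called member: Cyp17a1 (0.30 with sample weights, −0.36 to 0.091 without each library), Cyp1b1 (−1.79), Cyp27a1 (−0.70) and Cyp4b1 (−0.74) with lane, Cyp2b23 (−0.76 to 0.015 without each library, 0.035 at low mitochondrial counts) and Cyp2j5 (−0.057 to 0.96 without each library, −0.31 at low mitochondrial counts). The reversals with lane rest on library 1 of each diet and repeat the low values of low-NaCl library 1. Genes with few countable bases, such as Cyp27b1 and Por, limit what a count of 0 shows.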
